A study of Mus musculus with 112 samples.

Results

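Cytoplasmic ribosomal proteins are the protein components of the ribosomes that translate nuclear messenger RNAs. Their genes were followed in mouse gastrocnemius after limb immobilization. Members were chosen by gene symbol alone, as the Rpl and Rps genes of the 60S and 40S subunits together with the stalk genes Rplp0, Rplp1 and Rplp2 and the 40S gene Rpsa, leaving out pseudogene rows. The rule gave 82 genes of the 32544 in the count tables, 50 of the 60S subunit (3 of them stalk genes) and 32 of the 40S subunit. Of these, 79 passed the low-count filter, and Rpl10l, Rpl39l and Rps4l did not.

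The mice were Diversity Outbred, a stock bred so that no 2 animals share a genotype, aged 16 weeks, and the study held 1 hindlimb of each in a cast for 3 weeks. Gastrocnemius RNA from both limbs was depleted of ribosomal RNA and sequenced in stranded libraries, as 28 immobilized limbs of females, 28 control limbs of females, 28 immobilized limbs of males and 28 control limbs of males. Because the right limb was always the one in the cast, side and treatment cannot be told apart, and every control limb came from an animal that carried a cast. The aim named by the study was remodelling of the extracellular matrix and its difference between the sexes.

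A ribosome holds 1 copy of most of these proteins, and cells make them in matched amounts. Their messenger RNAs typically start with a run of pyrimidines, the TOP motif, through which the kinase complex mTORC1 and the RNA-binding protein LARP1 set how well they are translated. In skeletal muscle, ribosome number is one of the determinants of how much protein a fibre can make, and disuse is known for a lower rate of protein synthesis. The counts here measure messenger RNA, not ribosomes and not translation.

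Pyrimidine runs can be looked for in the reference sequence around the listed start sites. Each line below gives 40 bases before to 30 bases from the start on, 5′ to 3′ on the strand of the gene, as RefSeq lists it on GRCm38.p6, with the longest run of at least 8 C or T bases in capitals. Rpl38 (chr11:114668540-114668609, plus strand), Rplp2 (chr7:141447611-141447680, plus strand), Rps25 (chr9:44407674-44407743, plus strand), Rps26 (chr10:128626477-128626546, minus strand) and Rps6 (chr4:86857338-86857407, minus strand) hold such a run in this window. It crosses the listed start in Rpl38, Rplp2 and Rps6, lies after the start in Rps26, and ends before it in Rps25, so in Rps25 it is outside the transcript as listed. Rps4x (chrX:102189362-102189431, minus strand) and the muscle paralog Rpl3l (chr17:24727786-24727855, plus strand) have no run of that length in this window. They are shown as a pair from the members without one, of which Rps4x was called higher and Rpl3l was not called.
Rpl38: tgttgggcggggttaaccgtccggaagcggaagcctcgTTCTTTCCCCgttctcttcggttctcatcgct
Rplp2: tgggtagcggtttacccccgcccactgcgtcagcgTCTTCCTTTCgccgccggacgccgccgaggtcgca
Rps25: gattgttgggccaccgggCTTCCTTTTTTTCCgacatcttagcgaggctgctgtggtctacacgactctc
Rps26: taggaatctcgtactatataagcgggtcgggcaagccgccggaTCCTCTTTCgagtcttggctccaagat
Rps6: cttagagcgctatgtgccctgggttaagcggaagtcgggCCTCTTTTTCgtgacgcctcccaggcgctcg
Rps4x: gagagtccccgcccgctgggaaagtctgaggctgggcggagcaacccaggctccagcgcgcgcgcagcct
Rpl3l: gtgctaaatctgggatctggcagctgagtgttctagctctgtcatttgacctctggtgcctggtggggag

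A RefSeq promoter entry was found for 60 of the 82 members by symbol. A run of at least 8 C or T bases lay in this window in 38 of the 60, or 63.3%, and in 29.9% of the 27025 genes of the table. The ETS family motif CCGGAAGT, searched on both strands of the 300 bases that the table holds per entry (250 before to 50 after the start), was present in 12 of the 60 members, or 20.0%, and in 4.31% of all genes. Rps25 and Rps6 were among the 12. On the reverse strand this motif contains a short pyrimidine stretch, so the 2 searches can overlap. A match describes the letters of the window and not a site in use.

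Before the results, the libraries themselves have to be described. Total counts per library ran between 1716485 and 9995936, with a median of 4395118. In 10 libraries the count of Acta1, skeletal muscle actin, was under 50% of the median of all libraries: 4 of female immobilized, 1 of male immobilized, 3 of female control and 2 of male control limbs. One male control library held Acta1 at 3.45 CPM, the count scaled to library size, and the 8 muscle fibre markers at 6.77 CPM in sum, against 62550 to 175340 CPM for these markers in the 102 other libraries, so it goes against its label as muscle. In the 10 libraries the summed markers of T, B and NK cells had a median of 796 CPM (range 32.1 to 2572), against 41.8 CPM (range 4.42 to 400) in the 102 others. Adipocyte markers had a median of 3769 CPM in the 10 and 612 CPM in the others, and macrophage markers one of 436 CPM in the 10 and 93.2 CPM in the others. These libraries matter here because their share of ribosomal protein counts had a median of 4.41% (range 1.28% to 8.17%), against 1.42% (range 1.06% to 3.12%) in the others. The main results are therefore given with all animals and again with the 46 animals, 21 females and 25 males, in which both libraries lay above the Acta1 limit. Calls of cell markers, transcript length bins and some single members are given with all animals only.

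Ribosomal protein messages rose in the immobilized limb by a small amount across both subunits. Averaged over the sexes, 57 of the 79 tested members were called higher and 0 lower, where called means an adjusted p of at most 0.05 in edgeR's quasi-likelihood test with the animal as a block, adjusted over all 11886 genes tested. Over all genes tested, 9.54% were called higher, 10.3% lower and 19.9% in either direction. The median log2 fold change of the members was 0.24, or 1.18-fold, against 0.01 for all genes tested, and 77 of 79 members had a positive value. Of the 60S genes outside the stalk 33 of 45 rose, of the stalk genes 3 of 3, and of the 40S genes 21 of 31. The called members lay between 0.13 and 0.46 on the log2 scale (1.09-fold to 1.37-fold), with 34 under 0.3 and 4 at 0.4 or more.

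**Figure D1:**
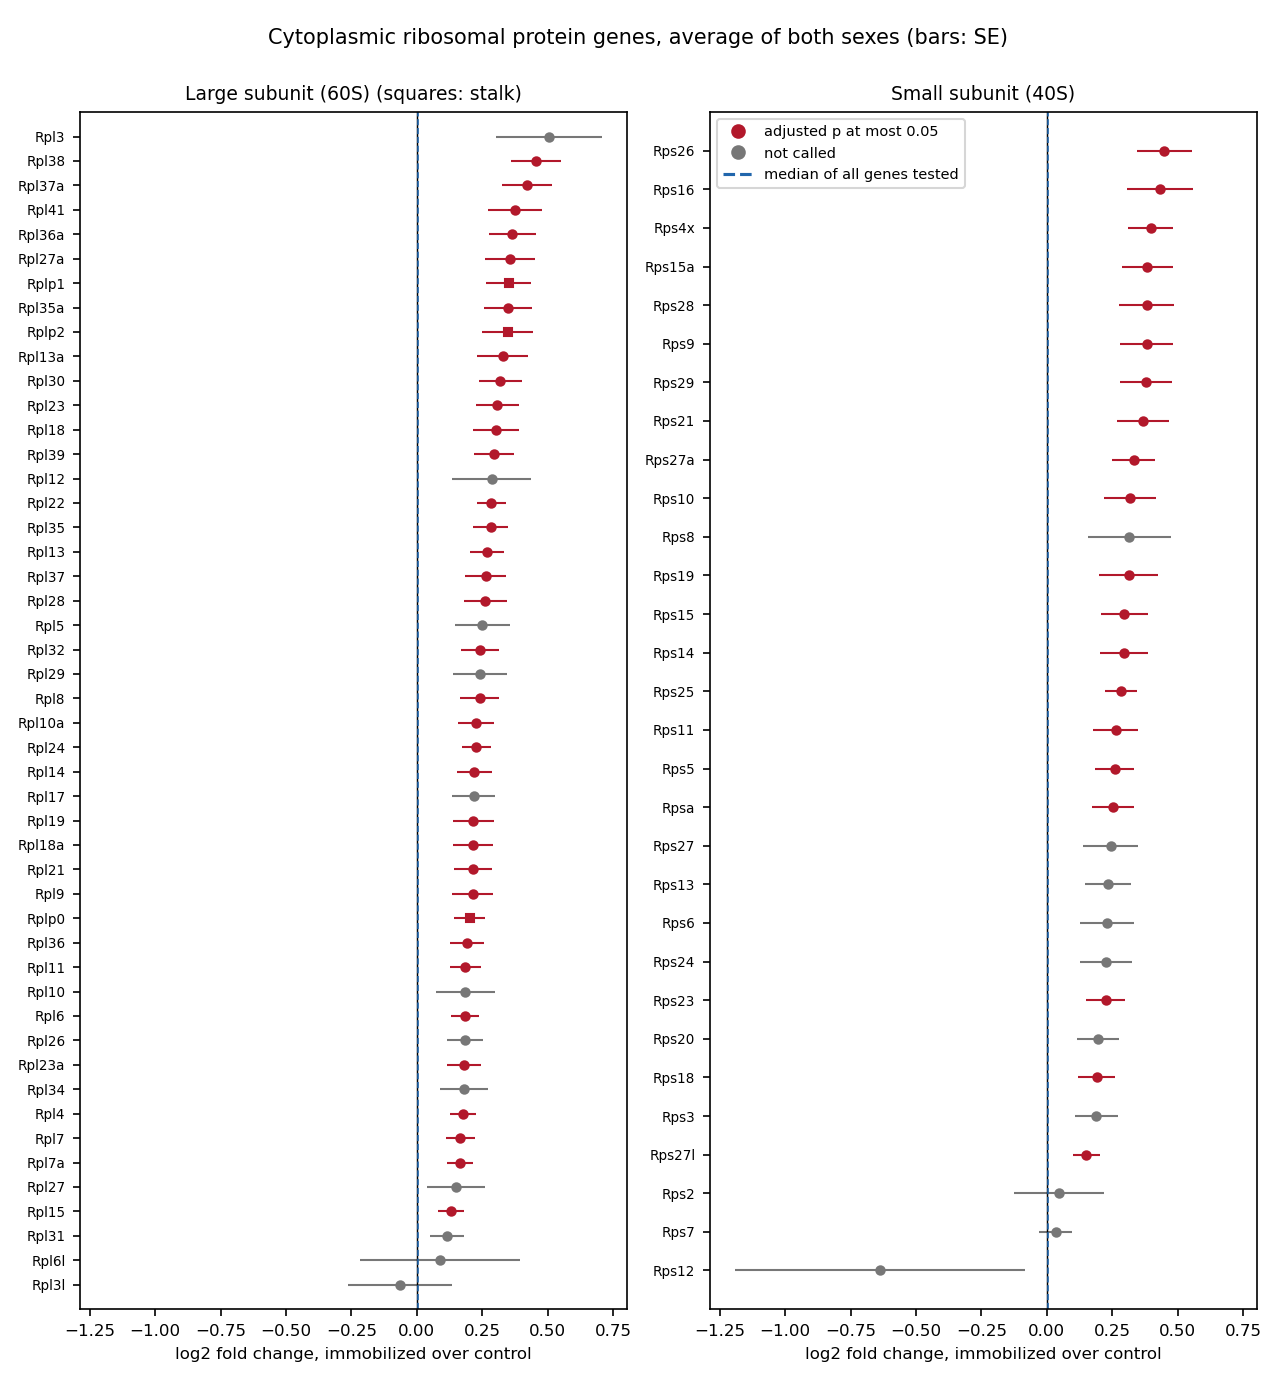
Each row is a tested member, of the 60S subunit on the left (squares mark the 3 stalk genes) and of the 40S subunit on the right, with its log2 fold change for immobilized over control limbs (average of both sexes, x axis) and SE as bars. The called members drawn, in red, all lie right of 0, and the 2 members left of 0, Rpl3l and Rps12, have wider bars than most.

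Without the animals of the low Acta1 libraries, 64 of 79 members were called higher and 0 lower, where 15.8% of 11731 genes were called higher and 16.4% lower, and 56 of the 57 were among the 64. The median was then 0.24, as large as with all animals. In bulk tissue, fewer cells of a type and less RNA per cell cannot be told apart.

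With all animals, including those of the low Acta1 libraries, markers of other cells moved in the same limbs, in both directions. All 9 macrophage markers were called higher, with a median log2 fold change of 0.86, and none was at 0 throughout. Their summed level ran between 17.1 and 872 CPM (median 168) in immobilized and between 44.3 and 427 CPM (median 86.7) in control limbs of females. In males it ran between 29.4 and 1419 CPM (median 107) in immobilized and between 17.7 and 229 CPM (median 76.1) in control limbs. Schwann cell markers were called higher in 5 of 6 cases and fibroblast markers in 3 of 7. Of the Schwann cell markers the sums ran between 95.7 and 590 CPM in immobilized and 66.7 and 819 CPM in control limbs of females (medians 211 in immobilized and 148 in control), and between 111 and 1189 CPM in immobilized and 71.0 and 522 CPM in control limbs of males (medians 203 in immobilized and 138 in control). Fibroblast sums ran between 345 and 5372 CPM (median 1519) in immobilized and 506 and 4443 CPM (median 1215) in control limbs of females, and between 393 and 13226 CPM (median 1101) in immobilized and 340 and 2503 CPM (median 1180) in control limbs of males, so the male median was lower in immobilized limbs. Endothelial markers were called lower in 3 of 5 cases, Kdr, Tek and Cdh5, and higher in 1, and of 8 adipocyte markers Plin4 was called lower and 0 higher. None of the 8 muscle fibre markers was called, and 1 of 12 T, B and NK cell markers passed the filter and was not called. The part of these cells in the ribosomal protein result was not tested.

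Members took a larger share of the counts in the immobilized limb. The summed share of the 82 genes had a median of 1.75% (range 1.19% to 8.17%) in immobilized and 1.44% (range 1.12% to 8.16%) in control limbs of females. In males it had a median of 1.48% (range 1.15% to 4.69%) in immobilized and 1.26% (range 1.06% to 2.19%) in control limbs. The ranges overlap in both sexes, and within animals the immobilized limb had the higher share in 23 of 28 females and 24 of 28 males. The median difference within animals was 0.23 percentage points over all 56 animals and again over the 46. Transcripts of the mitochondrial genome took less of the immobilized libraries, with medians of 11.9% against 16.3% in control limbs of females and 13.8% against 17.7% in control limbs of males. Taken over the counts without them, the members' share was higher in the immobilized limb in 44 of 56 animals, by a median of 0.19 points. Taken over TMM-scaled library sizes, it was higher in 41 of 56 animals, by a median of 0.21 points. These were 17 of 28 females and 24 of 28 males.

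**Figure D2:**
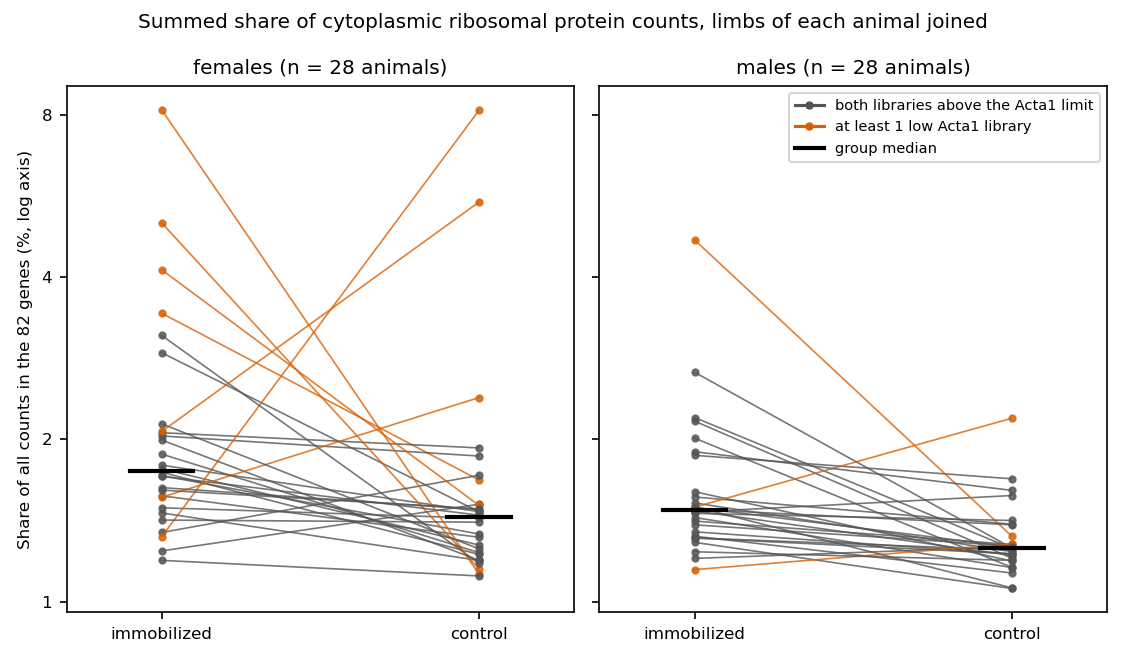
The share of all counts in the 82 genes (%, log axis) is joined between the immobilized and the control limb of each animal, in females on the left and males on the right, with black bars at the group medians. Most lines fall towards the control limb, and the animals with a low Acta1 library, in orange, hold the values above 4% in both sexes.

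Most members moved together within animals. The median member was higher in the immobilized limb in 42 of 56 animals, 18 of 28 females and 24 of 28 males. In 20 animals more than 90% of the 79 tested members were higher in that limb, and in 1 animal fewer than 10% were. That animal was female 26, whose control library had low Acta1 and whose median member change was the lowest, at -1.75 on the log2 CPM scale. Over the 46 animals without such libraries the median change ran between -0.21 and 1.06. Across animals, the change of one member and that of another had a median correlation of 0.81 over all pairs of members and 56 animals. It was 0.67 over the 46. Single pairs ran between -0.73 and 0.97 over the 56 animals and between -0.82 and 0.93 over the 46. Members share library, depth and scaling factor, so this is given as a description.

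Among the large-subunit genes, Rpl38, whose protein lies on the surface of the 60S subunit and is known in mouse embryos for a role in translating Hox messages, had the largest called change. It ran between 108 and 761 CPM (median 179) in immobilized and between 87.2 and 616 CPM (median 119) in control limbs of females. Male values ran between 87.9 and 324 CPM (median 138) in immobilized and between 69.4 and 158 CPM (median 109) in control limbs. The groups overlap, yet the immobilized limb was the higher one in 28 of 28 males and 20 of 28 females. The log2 fold change of Rpl38 was 0.46 ± 0.09 (SE, 56 animals; edgeR adjusted p = 0.00068), and 0.45 ± 0.07 over the 46 animals.

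Rpl22 had the smallest p of all members. Its protein binds RNA and is dispensable for most translation, and it is known for a role in T cell development in mice. Rpl22 ran between 91.9 and 223 CPM (median 121) in immobilized and between 63.3 and 185 CPM (median 104) in control limbs of females. In males it ran between 76.4 and 248 CPM (median 124) in immobilized and between 44.8 and 130 CPM (median 108) in control limbs. Its log2 fold change was 0.28 ± 0.05 (edgeR adjusted p = 0.00031), with the immobilized limb higher in 45 of 56 animals, and 0.26 ± 0.05 over the 46.

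Rpl37a, a zinc-binding component of the 60S subunit, varied more between animals. It ran between 27.0 and 1020 CPM (median 212) in immobilized and between 20.9 and 842 CPM (median 147) in control limbs of females, and between 68.9 and 408 CPM (median 165) in immobilized and 53.6 and 221 CPM (median 134) in control limbs of males. Without the low Acta1 animals its highest values in females were 458 CPM in immobilized and 266 CPM in control limbs. With all animals its log2 fold change was 0.42 ± 0.10 (edgeR adjusted p = 0.0016), higher in 47 of 56 animals. Rpl4, a member of high CPM whose protein reaches into the exit tunnel, changed less, by 0.18 ± 0.05 (edgeR adjusted p = 0.012). Rpl39, a very small protein of the exit tunnel wall, rose by 0.29 ± 0.08 (edgeR adjusted p = 0.0049).

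The stalk proteins recruit elongation factors to the ribosome, with Rplp0 as the base that carries Rplp1 and Rplp2. All 3 genes rose, Rplp1 by 0.35 ± 0.08, Rplp2 by 0.35 ± 0.10 and Rplp0 by 0.20 ± 0.06, with edgeR adjusted p-values of 0.0029, 0.0092 and 0.013. Rplp1 had a median of 548 CPM in immobilized and 416 CPM in control limbs of females, and 488 CPM in immobilized and 413 CPM in control limbs of males. The immobilized limb was the higher one in 45, 42 and 41 of 56 animals for Rplp1, Rplp2 and Rplp0.

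Rpl5 and Rpl11 encode the proteins that travel with 5S ribosomal RNA and, when ribosome assembly is disturbed, bind MDM2 and stabilize p53. Rpl11 rose by 0.18 ± 0.06 (edgeR adjusted p = 0.023). Rpl5 had a log2 fold change of 0.25 ± 0.11 and was not called (edgeR adjusted p = 0.083), with medians of 17.1 CPM in immobilized and 15.4 CPM in control limbs of females and 16.7 CPM in immobilized and 12.2 CPM in control limbs of males.

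Of the small-subunit genes named here, Rps26 and Rps4x had the largest called changes. Rps4x, an X-linked gene, ran between 210 and 1336 CPM (median 408) in immobilized and between 159 and 1614 CPM (median 309) in control limbs of females. Males had between 266 and 838 CPM (median 387) in immobilized and between 137 and 440 CPM (median 304) in control limbs. In both sexes the groups overlap, and the immobilized limb was the higher one in 48 of 56 animals. Its log2 fold change was 0.40 ± 0.09 (edgeR adjusted p = 0.0011), and 0.39 ± 0.05 over the 46 animals. Rps4x rose without a run of at least 8 pyrimidines in the window printed above. The window of Rpl37a held none either, though its longest run, of 7 bases, reached the end of the window. Both windows end in C or T bases, so a run that continues past them would not be seen.

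Rps26, a protein near the messenger RNA exit site that is known from yeast to leave some ribosomes under stress, had medians of 177 CPM in immobilized and 140 CPM in control limbs of females and 169 CPM in immobilized and 131 CPM in control limbs of males. Its log2 fold change was 0.45 ± 0.11 (edgeR adjusted p = 0.0023), higher in 46 of 56 animals. Its pseudogene row held 18.6% of the reads of gene and row together, and adding that row gave 0.43 ± 0.10.

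Rps25 is a 40S protein known for its role in initiation at internal ribosome entry sites. Its level ran between 234 and 498 CPM (median 299) in immobilized and between 183 and 708 CPM (median 237) in control limbs of females. Male levels ran between 228 and 507 CPM (median 298) in immobilized and between 135 and 344 CPM (median 246) in control limbs. The log2 fold change was 0.28 ± 0.06 (edgeR adjusted p = 0.00096).

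Rps19, the gene most often mutated in Diamond-Blackfan anaemia in humans, rose by 0.31 ± 0.11 (edgeR adjusted p = 0.042), and Rpsa, a 40S protein also known as a laminin receptor, by 0.25 ± 0.08 (edgeR adjusted p = 0.022). Rps6, the protein phosphorylated by the S6 kinases downstream of mTORC1, was not called with all animals. Its medians were 228 CPM in immobilized and 185 CPM in control limbs of females and 185 CPM in immobilized and 167 CPM in control limbs of males, and its fold change was 0.23 ± 0.10 on the log2 scale (SE), with an adjusted p of 0.10 from edgeR. Over the 46 animals its value was the same at 0.23 ± 0.06, and it was called (edgeR adjusted p = 0.0020).

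**Figure D3:**
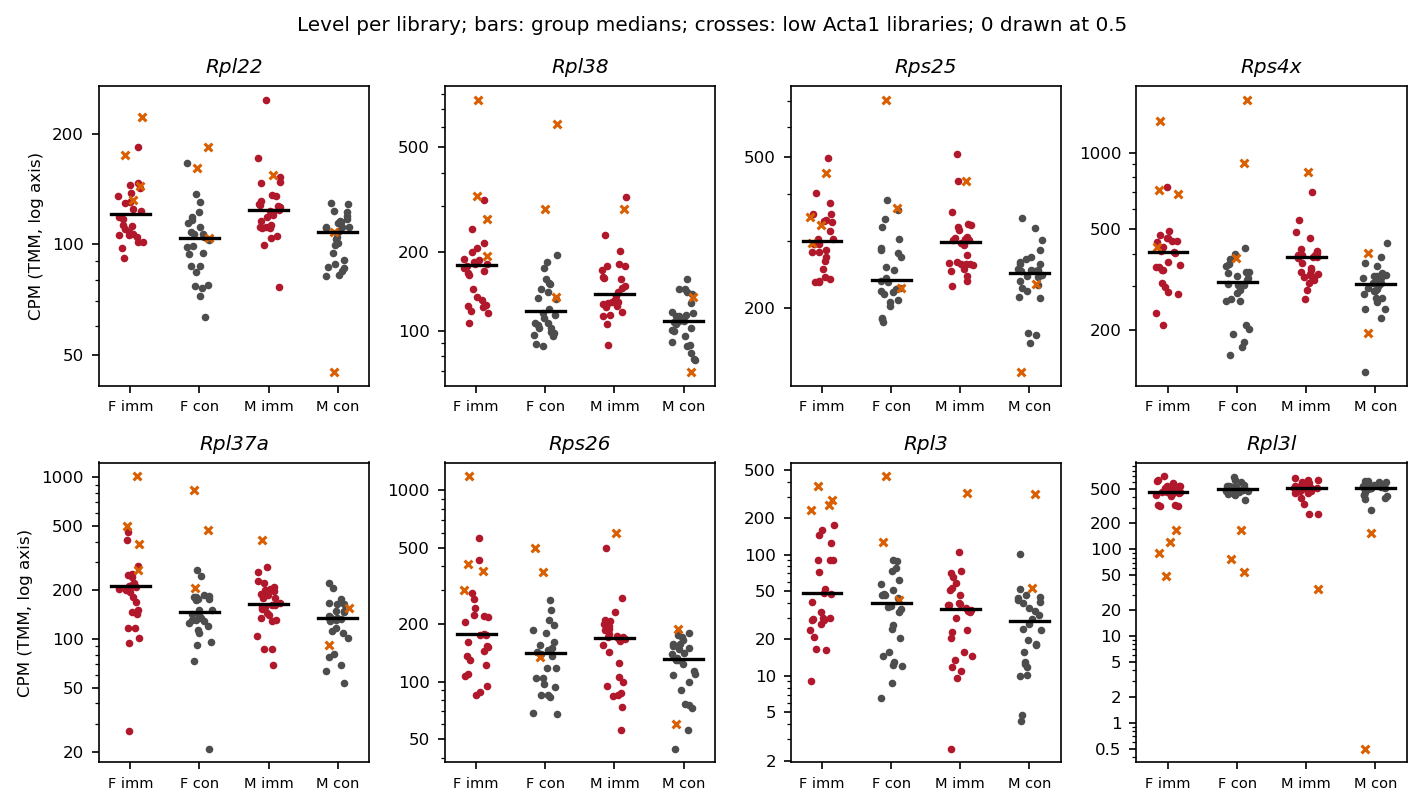
Levels of 8 members in each library (CPM on TMM-scaled library sizes, log axis) are shown for females (F) and males (M), immobilized (imm, red) left of control (con, grey), with bars at the medians and crosses for the 10 low Acta1 libraries. The groups overlap in every panel, Rpl3 spreads over more than a decade in each group, and Rpl3l is low in the crossed libraries.

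Rpl3 and Rpl3l form a pair of paralogs. Rpl3 is the widely expressed form of a protein near the catalytic centre of the 60S subunit, and Rpl3l is its counterpart in heart and skeletal muscle. Rpl3l ran between 49.0 and 695 CPM (median 459) in immobilized and between 54.7 and 678 CPM (median 490) in control limbs of females. Males had between 34.6 and 662 CPM (median 505) in immobilized and between 0 and 619 CPM (median 507) in control limbs. Its low values belonged to the 10 low Acta1 libraries, where the median was 84.4 CPM against 503 CPM in the 102 others. Rpl3l was not called, at -0.06 ± 0.20 (edgeR adjusted p = 0.85) and at -0.07 ± 0.06 over the 46 animals (edgeR adjusted p = 0.38), and the immobilized limb was the higher one in 29 of 56 animals.

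Rpl3 ran between 9.06 and 371 CPM (median 47.9) in immobilized and between 6.58 and 445 CPM (median 39.9) in control limbs of females. Male levels ran between 2.50 and 325 CPM (median 35.5) in immobilized and between 4.22 and 319 CPM (median 28.1) in control limbs. Its log2 fold change was 0.50 ± 0.20 and was not called (edgeR adjusted p = 0.069). It was called over the 46 animals, at 0.54 ± 0.16 (edgeR adjusted p = 0.0086).

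Pseudogene rows take a large part of the Rpl3 reads, 48.9% of the gene and its rows together. With those rows added, Rpl3 ran between 44.6 and 552 CPM (median 127) in immobilized and between 40.5 and 687 CPM (median 67.9) in control limbs of females. In males it ran between 54.8 and 501 CPM (median 73.8) in immobilized and between 34.5 and 319 CPM (median 62.4) in control limbs. The summed row was called higher, at 0.53 ± 0.18 (edgeR adjusted p = 0.031). Per kilobase of transcript, on the median length of protein-coding transcripts in GENCODE M21, Rpl3l exceeded Rpl3 in the median library of each group, 9.62-fold in immobilized and 9.91-fold in control limbs of females and 10.5-fold in immobilized and 13.8-fold in control limbs of males. These ratios leave out the pseudogene rows and are overstated to the extent that the rows hold Rpl3 reads.

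The other paralogs were at low counts or changed little. Rps27l, a paralog of Rps27 known as a p53 target, rose by 0.15 ± 0.05 (edgeR adjusted p = 0.034). Rps27 had a log2 fold change of 0.24 ± 0.11 and was not called (edgeR adjusted p = 0.095), though it was over the 46 animals at 0.22 ± 0.06 (edgeR adjusted p = 0.0057). Rpl39l, a paralog of Rpl39 best known from testis, had 36 counts summed over immobilized and 17 over control limbs of females, and 42 over immobilized and 13 over control limbs of males. Rps4l had 223 counts in immobilized and 157 in control limbs of females, and 227 in immobilized and 175 in control limbs of males. Rpl10l, which replaces Rpl10 in male germ cells, had 0 counts in 112 libraries, which allows up to 0.3 CPM in the deepest and 1.75 CPM in the shallowest library, counting error alone.

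Processed pseudogenes copy ribosomal protein messages, and reads can be split between a gene and its copies. The tables hold 272 pseudogene rows for 58 of the members, and in 19 members these rows held more than 10% of the reads of gene and rows together. The share was 92.8% for Rpl27, 89.8% for Rps12, 84.4% for Rpl10, 55.6% for Rps2 and 51.6% for Rps23, and values of those genes alone are uncertain. Rps2 and Rps23 are named here after their values were seen. Rps12 had a log2 fold change of -0.64 ± 0.55 by itself (edgeR adjusted p = 0.43), and 0.39 ± 0.11 with its rows added (edgeR adjusted p = 0.0089). Rpl27 had 0.15 ± 0.11 by itself (edgeR adjusted p = 0.34), and was called higher with its rows, at 0.27 ± 0.07 (edgeR adjusted p = 0.0049). Rpl10, an assembly and peptidyl-transfer protein, had 0.18 ± 0.11 by itself (edgeR adjusted p = 0.24) and was called with its rows at 0.17 ± 0.06 (edgeR adjusted p = 0.038). With the rows added for all members, 62 of 79 were called higher, 56 of them among the 57. In that fit 9.7% of 11850 genes were called higher and 10.3% lower. Of 36 pseudogene rows that passed the filter as rows of their own, 4 rows of Rpl35a held the same counts in every library and were taken once. Of the 33 distinct rows 9 were called higher and 0 lower, with a median log2 fold change of 0.28. Of all genes tested, 9.54% were called higher and 10.3% lower.

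Rps2, Rps7, Rpl3l, Rpl6l and Rps12 had the lowest log2 fold changes of the 79, at or below 0.09, and Rps7 is also named after its values were seen. Rps7 had 0.03 ± 0.06 (edgeR adjusted p = 0.74), with medians of 49.1 CPM in immobilized and 46.3 CPM in control limbs of females and 43.7 CPM in immobilized and 45.4 CPM in control limbs of males. The other 17 members not called had values between 0.11 and 0.50, all positive. Rpl6l had a median of 0 CPM in 3 of the 4 groups and passed the filter through the libraries that held it.

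Ribosomal protein transcripts are short, so the change with all animals was set beside that of other genes of the same transcript length. In the bin up to 500 bases, 14 members had a median log2 fold change of 0.34 and 153 other genes 0.07. Between 500 and 1000 bases, 49 members had a median of 0.24 and 1816 other genes 0.04. Between 1000 and 2000 bases the medians were 0.22 for 13 members and 0.04 for 3015 other genes. Above 2000 bases, 2 members had a median of 0.24 and 6181 other genes -0.03. Members had the higher median in each bin, and their own median was largest for the shortest transcripts. Calls among the other genes also differed with length. Up to 500 bases 13.7% of them were called higher and 5.23% lower, and between 500 and 1000 bases 13.7% and 7.49%. Between 1000 and 2000 bases it was 12.2% and 8.69%, and above 2000 bases 6.41% and 12.5%. The part of transcript length in the result was not tested.

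In the fit over both sexes, each sex had a similar size of change with few calls. In females 4 members were called higher, namely Rpl22, Rpl38, Rps26 and Rps4x, and 0 lower, where 2.09% of all genes were called higher, 2.47% lower and 4.56% in either direction. In males 4 members were called higher, among them Rpl22, Rps25 and Rpl38, and 0 lower, where 1.08% of all genes were called higher, 1.11% lower and 2.19% in either direction. The median log2 fold change was 0.26 in males and 0.25 in females, with positive values in 77 and 74 of 79 members. The counts in a single sex moved with the animals and with the fit. Without the low Acta1 animals 46 members were called higher in males and 54 in females, where 4% and 7.98% of genes were. None was called lower, where 4.79% and 9.06% of genes were, and the medians were 0.24 in males and 0.26 in females. With each sex fitted alone and all its animals kept, 40 of 78 members were called higher in males and 0 of 78 in females. Of all genes, 2.85% and 0.468% were called higher in these fits. The cause of these moves was not tested.

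**Figure D4:**
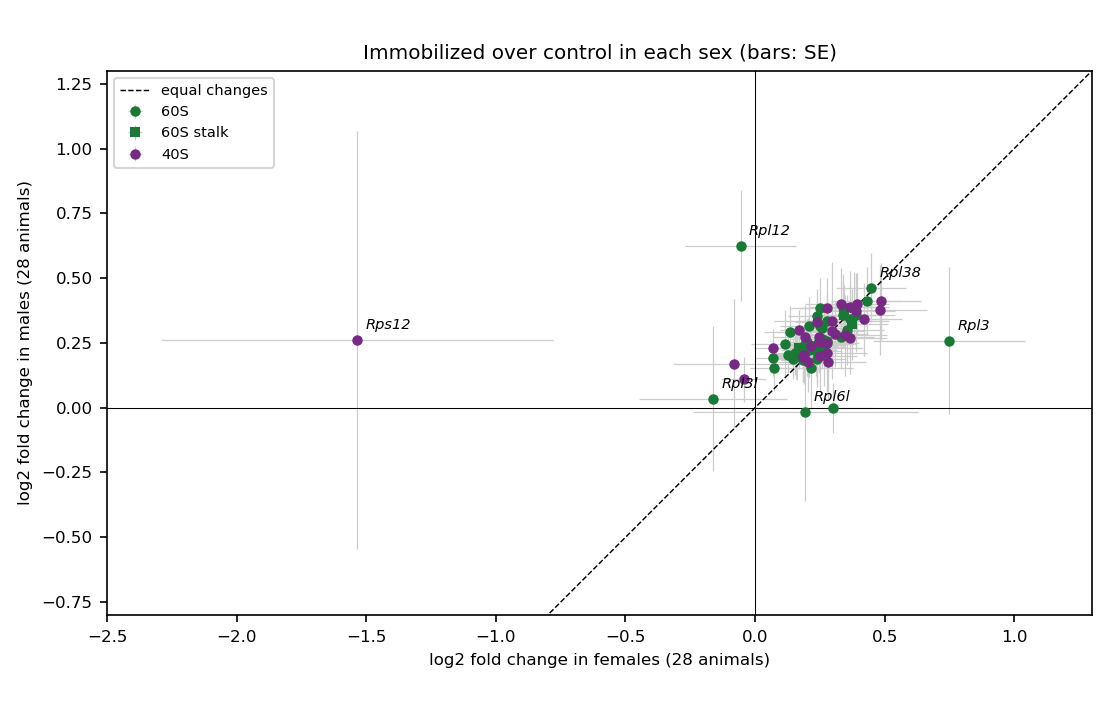
Log2 fold changes of the 79 tested members for immobilized over control limbs are plotted for females (x axis) and males (y axis), with SE bars, green for the 60S and purple for the 40S subunit. Most members crowd near the line of equal changes between 0.1 and 0.5, and Rps12 stands apart with the widest bars.

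The difference between the sexes was tested as an interaction. In male minus female change, 0 members and 0% of all genes were called, while 1 of 79 members and 195 of 11886 genes had an unadjusted p up to 0.05. DESeq2 and limma voom also called 0 members. The median difference was 0.02 on the log2 scale and the SE of a member had a median of 0.17, beside a median change of 0.24, so differences of that order could be missed. Rpl38 differed by 0.02 ± 0.19. The member with p under 0.05 was Rpl12, whose protein sits beside the stalk, with 0.63 ± 0.21 in males, -0.06 ± 0.21 in females and a difference of 0.68 ± 0.30 (p = 0.027, edgeR adjusted p = 1). Rpl12 had few reads, with medians of 5.50 CPM in immobilized and 3.57 CPM in control limbs of males and 5.66 CPM in immobilized and 6.47 CPM in control limbs of females. Rps12 had a difference of 1.80 ± 1.11 (p = 0.11) and Rpl3 of -0.49 ± 0.41 (p = 0.23).

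In control limbs, males had lower levels of ribosomal protein messages than females in the median. Rpl12, Rps21, Rps27a and Rpl39 were called lower in males and 0 members higher, where 0.824% of genes were called lower, 0.984% higher and 1.81% in either direction. Rpl12 differed by -0.98 ± 0.25 (edgeR adjusted p = 0.019), Rps21 by -0.49 ± 0.13 (edgeR adjusted p = 0.031), Rps27a by -0.42 ± 0.11 (edgeR adjusted p = 0.037) and Rpl39 by -0.39 ± 0.11 (edgeR adjusted p = 0.047). Rps27a, which encodes ubiquitin fused to a 40S protein, ran between 115 and 243 CPM (median 185) in males and between 147 and 752 CPM (median 209) in females. Over all members the median was -0.32, and 74 of 79 values were negative. Of the 10 low Acta1 libraries, 3 belonged to this group of female controls and 2 to the male controls. Without their animals the median was -0.13, Rpl12 alone was called (-0.88 ± 0.20, edgeR adjusted p = 0.0068) and 1.14% of genes were called lower and 1.88% higher.

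The rest of the translation apparatus was described from lists of named genes, in the average over the sexes. The ribosomal proteins and relatives whose symbols fall outside the rule came closest to the members, with 3 of 8 called higher, 0 lower and a median of 0.22. Fau, a fusion of a ubiquitin-like protein with a 40S protein, rose by 0.38 ± 0.13 (edgeR adjusted p = 0.031), Rpl36al by 0.27 ± 0.06 (edgeR adjusted p = 0.0032) and Rack1, the scaffold protein on the 40S head, by 0.16 ± 0.06 (edgeR adjusted p = 0.041). Rps3a1 had 0.28 ± 0.11 (edgeR adjusted p = 0.059) and Rpl22l1, the paralog of Rpl22, 0.09 ± 0.06 (edgeR adjusted p = 0.32).

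With all animals, the genes that make ribosomes were called higher in a share near or below that of all genes. Of all genes tested 9.54% were called higher and 10.3% lower, and without the low Acta1 animals 15.8% and 16.4%, and the lists that follow are to be read against these shares. Of 17 tested genes of RNA polymerase I and ribosomal DNA transcription, 1 was called higher (5.88%), 1 lower (5.88%), and the median was 0.08. Ubtf, the factor that opens ribosomal DNA, rose by 0.18 ± 0.06 (edgeR adjusted p = 0.022), and Polr1a, the largest subunit of the polymerase, had -0.20 ± 0.06 (edgeR adjusted p = 0.015). Myc had 0.39 ± 0.18 and was not called (edgeR adjusted p = 0.10). Of 52 ribosome assembly genes 5 were called higher (9.62%) and 0 lower, with a median of 0.06. Among these Ebna1bp2 rose by 0.26 ± 0.05 (edgeR adjusted p = 0.00092), Rrp1 by 0.17 ± 0.04 (edgeR adjusted p = 0.0035) and Ncl, nucleolin, by 0.21 ± 0.07 (edgeR adjusted p = 0.022). Without the low Acta1 animals 5 polymerase I genes (29.4%) and 11 assembly genes (21.2%) were called higher, and 1 and 0 lower.

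Some translation factors were called in each direction. Of 38 initiation factors 6 were called higher (15.8%) and 3 lower (7.89%), with a median of 0.03, and without the low Acta1 animals 11 (28.9%) and 7 (18.4%). Eif5b, which joins the subunits, rose by 0.30 ± 0.05 (edgeR adjusted p = 5.2e-05) and Eif3b by 0.19 ± 0.05 (edgeR adjusted p = 0.0031), while Eif5 had -0.25 ± 0.06 (edgeR adjusted p = 0.0035). Of 13 elongation and termination factors 3 were called higher and 1 lower (median 0.08), and without the low Acta1 animals 4 and 3. Those of smallest p were Eef1b2 at 0.27 ± 0.07 (edgeR adjusted p = 0.0064), Eif5a at 0.18 ± 0.06 (edgeR adjusted p = 0.016) and the termination factor Gspt1 at -0.19 ± 0.05 (edgeR adjusted p = 0.0073). Eef1a2, the muscle form of elongation factor 1A, had 0.00 ± 0.21, Eef1a1, its widely expressed counterpart, 0.44 ± 0.17 (edgeR adjusted p = 0.056) and Eef2 0.08 ± 0.06. None of these 3 was called.

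Genes of mTORC1 signalling were called lower in 8 (25%) and higher in 2 (6.25%) of 32 cases, with a median of -0.05. Without the low Acta1 animals 8 were called lower (25%) and 6 higher (18.8%), so the excess of lower calls was smaller there. Mtor itself had -0.30 ± 0.07 (edgeR adjusted p = 0.0015), Larp1, the protein that binds the pyrimidine run, -0.19 ± 0.04 (edgeR adjusted p = 0.0026), and Rptor, the scaffold of the complex, -0.26 ± 0.07 (edgeR adjusted p = 0.0044). The list holds both activators and inhibitors of mTORC1, so these counts give no direction for the pathway. Message levels do not measure the activity of the kinase. The mitochondrial ribosomal proteins, which translate the few proteins encoded in mitochondrial DNA, had 1 of 77 called higher, Mrpl52 at 0.23 ± 0.06 (edgeR adjusted p = 0.0064), and 9 called lower (11.7%), with a median of -0.07. Mrpl3 had -0.27 ± 0.08 (edgeR adjusted p = 0.0086). Without the low Acta1 animals 2 were called higher (2.6%) and 18 lower (23.4%).

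**Figure D5:**
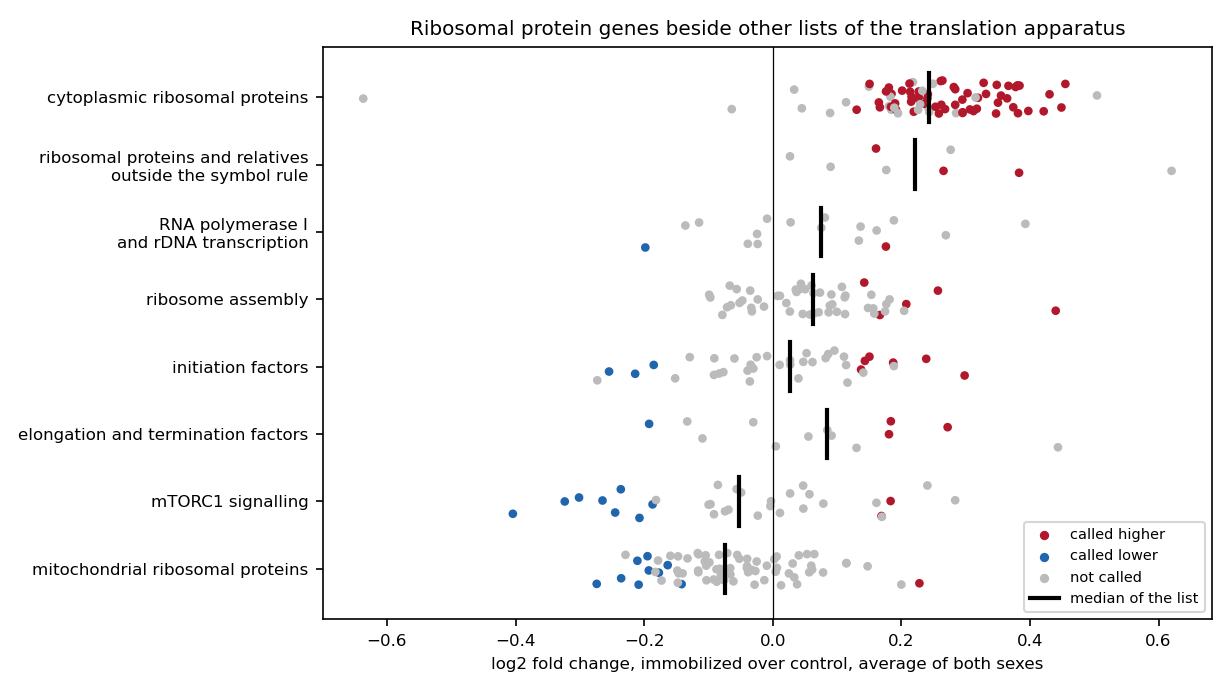
Each point is a tested gene with its log2 fold change for immobilized over control limbs (x axis, average of both sexes), by list, red where called higher, blue where called lower and grey where not called, with a black bar at the median of the list. The cytoplasmic ribosomal proteins have a median of 0.24, and the mitochondrial ribosomal proteins lie mostly left of 0 with a median of -0.07.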

How the data were processed

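Per the labels' protocols, RNA was extracted with a fibrous tissue kit and made into stranded libraries of total RNA after ribosomal RNA was depleted. The authors deposited raw counts of reads per symbol, 1 table per sex. The genome build is not given in the sources used here, nor are the aligner, the counting tool and the handling of reads that match several loci, which affects genes with processed pseudogenes. No row lacked a gene name.

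The test was that of edgeR 4.0.16 under R 4.3.3 (TMM, filterByExpr, robust quasi-likelihood test) over all 112 libraries, with a term per animal and 1 immobilization effect per sex, and p-values were adjusted by Benjamini-Hochberg over 11886 genes at a threshold of 0.05. The average is the mean of both sexes' effects. Males and females in control limbs were compared in a fit of 56 libraries without a block. Levels are CPM on TMM-scaled library sizes, and log2 CPM used a prior count of 2. Errors are SE of the log2 fold change.

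Limbs were paired by the animal number that their labels carry. Deviations from the group means correlated with a median of 0.36 between the limbs of an animal (lowest -0.43, over 0.1 in 45 of 56), against 0.0013 between limbs of different animals of the same sex. Taking off the group means centres values between different animals near 0, so the second value follows largely from the method. No libraries held identical counts. Limbs of different animals are separate biological samples, each sequenced once, and counting intervals cover counting error only.

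The members, the lists, the rule for naming genes, the Acta1 limit and the alternatives were chosen with earlier results of these data known. Named are the members with the smallest p among those called in each comparison (up to 6), 20 members fixed by role, the 3 of highest and 3 of lowest CPM, and those leading the comparisons of the sexes. From the other lists, the 3 genes of smallest p and 10 fixed genes could be named. Exceptions are stated where they occur. A few genes picked by these rules are not reported here. Members were not tested as a set. Promoter sequences came from RefSeq on GRCm38.p6 and transcript lengths from GENCODE M21, matched by symbol for 94.6% of genes tested and 98.7% of members. Alternatives were DESeq2 1.42.0, limma voom (limma 3.58.1), other scalings and filters, no animal block, and subsets of animals.

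The fit was tested on simulated counts for the 11886 genes, drawn independently of each other. The draw held no effect of the animal, so limbs of an animal were unrelated there, unlike in the data. The rates below therefore do not measure recovery in the paired data. In the average it recovered 27% of 1.2-fold, 72% of 1.5-fold and 83% of 2-fold changes, with 8 genes called in error. For male minus female it recovered 30% of 1.5-fold and 68% of 2-fold differences, with 2 genes called in error.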

Additional observations from a re-analysis of the deposited data

How the results depend on the processing

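The count of members called in the average, 57, lay between 41 and 64 under other scalings, filters and tests, without males 15 and 16, without the low Acta1 animals and with pseudogene rows added (chosen after seeing the data), and the median lay between 0.24 and 0.26 throughout. Within animals numbered 1 to 20, 21 to 40 and 41 to 59 the counts were 28, 0 and 0, where 1078, 1 and 2 genes were called of all genes, with medians of 0.24, 0.26 and 0.26, and the cause of this difference was not tested. The fit without the animal block (no pairing) called 41 members in the average, 0 in females and 8 in males. Of all genes it called 9.74%, 1.87% and 2.63% higher. Over the settings that gave 41 to 64 members, the share of all genes called higher ran between 4.21% and 15.8%. In females, where 4 were called, the count was 0 with no low-count filter (0.303% of genes called higher) and with females fitted alone (0.468%). It was 2 with a mean of at least 1 CPM (1.65%) and without males 15 and 16 (1.86%), and 7 with limma voom (2.83%). With DESeq2 it was 16, of which Rps12 was lower (5.02% of genes higher, 4.61% lower). Without the low Acta1 animals it was 54 (7.98%). In males, where 4 were called, it was 1 with no low-count filter (0.273% of genes called higher) and 11 with limma voom (1.99%). It was 19 with DESeq2 (2.72%), 40 with males fitted alone (2.85%) and 46 without the low Acta1 animals (4%). By number range it was 2, 0 and 0 in females, where 1.71%, 0% and 0% of genes were called higher. In males it was 0 in each range, beside 0.0262%, 0% and 0.00821% of genes. For males against females in control limbs, where 4 were called, it was 1 without the low Acta1 animals and 0 with limma voom. Of all genes, 1.14% and 0.379% were called lower there. Leaving out the low Acta1 animals and fitting a single sex also change the samples, and the cause of these moves was not tested. No alternative called a member in the male minus female difference. Without the low Acta1 animals (a comparison of lists chosen after seeing the data), the counts higher were 5 for polymerase I genes, 11 for assembly, 11 for initiation, 6 for mTORC1 (8 lower) and 2 for mitochondrial ribosomal proteins, and the counts lower were 7 for initiation, 3 for elongation and 18 for mitochondrial ribosomal proteins. Of the 210 single-member values under alternatives (21 members), 195 kept direction and call, 7 lost the call (5 of them without the block, 2 with no low-count filter), 7 gained it and 1 reversed, Rpl3l at 0.0791 under limma voom. Low counts limit the 3 members below the filter and, among those tested, Rpl12, Rpl27, Rpl5 and Rpl6l.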
